A study of Mus musculus with 4 samples.

Results

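The cells described are mouse caudal epiblast-like cells that carried transcripts of the embryonic node. Of the 2386 barcodes of the Epi-CE library that the deposited cell table marks TRUE, 309 held at least 4 unique molecular identifiers (UMIs, each 1 captured transcript) of Foxa2, Foxj1, Chrd, Shh and Noto together and at least 1 UMI of T. These 309 cells are called the rule cells. They made up 12.95% of the library's TRUE cells (11.6 to 14.4, Clopper-Pearson 95% interval, counting error only), and they are set against the 2077 other TRUE Epi-CE cells. The whole series holds 10579 barcodes, of which 8722 are marked TRUE.

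The study collected single-cell transcriptomes with the 10x Chromium system from 4 cultures that aim at neuromesodermal progenitors, with 1 library per culture and 8700 cells loaded for each. Epi-CE cells came from epiblast stem cells of the E14Tg2a line, kept for at least 4 passages in FGF2 at 12 ng/ml and activin A at 25 ng/ml. They were taken off activin and given FGF2 at 20 ng/ml, and on day 3 the GSK3 inhibitor CHIR99021 (3 µM), which switches on WNT signalling, was added. Epi-CE-T cells came from a Brachyury-GFP reporter line on the same regime and were sorted for GFP after 72 h. Epi-NMP cells were Epi-CE cells replated for 2 more days in FGF2 and CHIR99021. The ES-NMP culture started from embryonic stem cells in N2B27 medium, with CHIR99021 at 3 µM at the end of the 72 h. All are in vitro cultures without embryonic tissue around them, and the cells of the 3 cultures other than ES-NMP had all seen activin, FGF2 and CHIR99021.

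The node sits at the front end of the primitive streak and is the organiser of the mouse embryo. Its cells secrete the BMP antagonists chordin and noggin and the ligand Sonic hedgehog, and they give rise to the notochord, the rod of T-positive cells under the neural tube. Cells in the pit of the node carry a single motile cilium whose beat drives the leftward flow that sets the left-right axis. Foxj1 is the transcription factor that switches on motile cilium genes, Noto acts in the node upstream of cilium formation, and Foxa2 is needed for the node to form.

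Depth was slightly lower in the rule cells. Their median cell held 20891 UMIs and 4459 detected genes, against 22829 UMIs and 4543 genes in the other cells. Mitochondrial transcripts made up 2.41% of UMIs in the rule cells and 2.23% in the other cells. Barcodes were rarely shared between libraries: 1, 1 and 3 of the rule cells had a barcode that also occurs in ES-NMP, Epi-CE-T and Epi-NMP. With 1 library per culture, no difference below has a replicate check. Cells are not replicates, so no p-value was computed, and all intervals are 95% intervals of counting error, which do not cover differences from cell to cell.

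The 6 genes of the rule chose the cells, so their values are a description. Foxa2 (chromosome 2, 148042877 to 148046969, minus strand, mm10) supplied most of the counted transcripts, with 1239 UMIs in the rule cells and 840 in the other cells. It was detected in 275 of the 309 rule cells, with a median of 4 UMIs and a maximum of 17. Chrd, which encodes chordin (chromosome 16, 20733127 to 20742384, plus strand), had 374 UMIs in 182 rule cells and 355 UMIs in 298 other cells. Foxj1 (chromosome 11, 116330704 to 116335399, minus strand) had 301 UMIs in 102 rule cells and 170 UMIs in 148 other cells. Shh (chromosome 5, 28456815 to 28467256, minus strand) was the most unevenly placed, with 240 UMIs in 79 rule cells and 20 UMIs in 18 other cells. Noto (chromosome 6, 85423886 to 85428877, plus strand) was rare, with 28 UMIs in 15 rule cells and 16 UMIs in 16 other cells. T, the Brachyury factor of streak and notochord (chromosome 17, 8434423 to 8442496, plus strand), had a median of 16 UMIs in the rule cells and 8 in the other cells, and 88.6% of all TRUE Epi-CE cells had at least 1.

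There was no gap in the data at the threshold. Just inside it, 68 rule cells had 4 UMIs of the 5 node genes, and just outside it 139 cells with T had 3. The highest sum was 22 UMIs, in 1 cell. A further 12 cells reached 4 UMIs but had no T UMI and stayed among the other cells. Most rule cells showed a few of the genes rather than the full set: 87 cells had only 1 of the 5 detected, 113 had 2, 96 had 3, 13 had 4 and 0 had all 5. The commonest combinations were Foxa2 alone (74 cells), Foxa2 with Chrd (59 cells), and Foxa2 with Foxj1 and Chrd (46 cells).

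**Figure D1:**
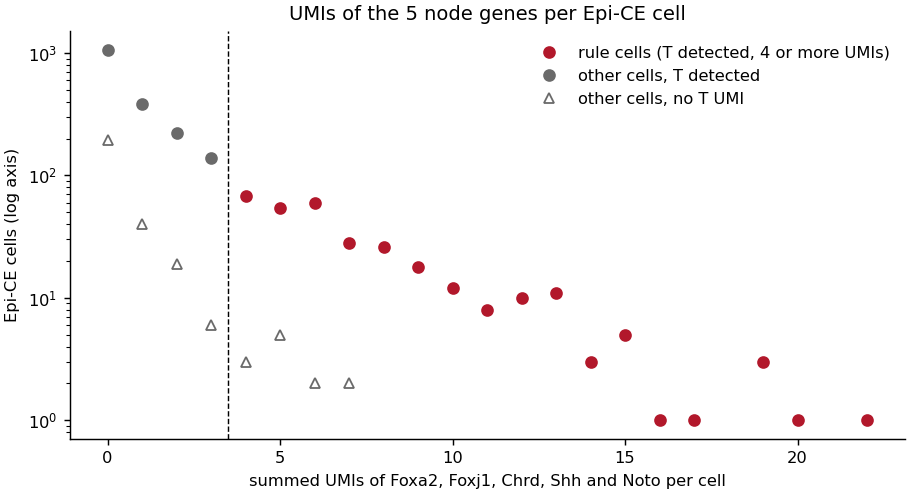
Number of Epi-CE cells (log axis) at each sum of Foxa2, Foxj1, Chrd, Shh and Noto UMIs, with rule cells in red, other cells with T in grey and cells without a T UMI as open triangles. The counts decline without a break across the dashed threshold, with 68 cells at 4 UMIs and 139 at 3, and cells without T do not go above 7.

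Each node gene was also looked at in cells chosen by the other 4 of the 5, which its own counts did not select. Foxa2 was 3.16-fold higher in 112 such cells than in the rest of the library (2.76 to 3.61), and was detected in 69.6% of them against 32.1% of the rest. Foxj1 was 5.38-fold higher (4.45 to 6.50), Chrd 4.03-fold (3.43 to 4.72), Shh 4.92-fold (3.79 to 6.36) and Noto 11.3-fold (5.95 to 22.1). Each of the 5 genes was thus higher where the others were. In cells without T, which had a median of 23345 UMIs, Foxj1 was detected in 4.80% and Shh in 0.738%. Among all TRUE cells with T, Chrd was detected in 73.7% of the 95 cells with Shh and in 19.3% of those without. Foxj1 was detected in 14 of the 95 cells with Shh and in 223 of the 2020 without, a much smaller difference in share.

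The name node-like was checked against 9 node genes that the rule does not use. Of these, 7 were at least 1.5-fold higher in the rule cells, as were 7.36% of all measured genes. Members and lists were chosen with earlier results of these data known, which limits this check. Nog, which encodes noggin, was at 46.8 CPM (UMIs per 1000000 UMIs, from UMIs summed over cells) in the rule cells and 14.8 CPM in the other cells, a ratio of 3.17 (2.78 to 3.61). The 66 rule cells with Shh and no Foxj1 held 53.4% of its rule-cell UMIs. Pifo, a ciliary gene active in the node, was 4.41-fold higher (3.24 to 5.97), and Foxa1, the close relative of Foxa2, 4.18-fold. Bicc1, an RNA-binding protein needed for cilium orientation in the node, was at 104 CPM in the rule cells and 39.2 CPM in the other cells, 2.66-fold higher (2.45 to 2.90). Rsph1, a radial spoke protein of motile cilia, was 2.04-fold higher (1.25 to 3.22), Calca 1.62-fold (1.43 to 1.83) and Dand5, the Nodal antagonist of crown cells at the node's edge, 1.60-fold (1.14 to 2.21). Nodal itself was at 22.4 CPM in the rule cells and 21.2 CPM in the other cells, a ratio of 1.05 (0.89 to 1.24). Dnah11, the dynein that drives nodal cilia, had 5 and 10 UMIs in these sets, too few for a ratio.

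Markers of other cell types gave the following picture. Sox17, an endoderm factor, was at 5.11 CPM in the rule cells and 2.18 CPM in the other cells, but its 37 UMIs came from 4 of the 309 rule cells, and 54.1% of them from 1 cell. The visceral endoderm genes Afp and Ttr had 0 UMIs in both sets, and so had Kdr, a receptor of blood and vessel progenitors. Amn and Apoa1, also of visceral endoderm, had 6 and 0 UMIs in the rule cells and 37 and 11 in the other cells. Etv2, Hand1 and Tal1, of lateral mesoderm and endothelium, had 7, 1 and 0 UMIs in the rule cells and 104, 14 and 2 in the other cells. Of the other endoderm markers, Hhex had 51 UMIs in the rule cells and 283 in the other cells, a ratio of 1.28 (0.93 to 1.73). Gata6 was scarcer, with 10 and 31 UMIs in these sets (2.29-fold higher, with an upper bound of 4.80 and a lower bound that just reaches equality). Gata4 had 7 and 65 UMIs and Cxcr4 3 and 9. Of the neural markers, Irx3 was at 8.84 CPM in the rule cells and 4.08 CPM in the other cells, 2.16-fold higher (1.61 to 2.88), and Sox2 at 37.0 and 30.6 CPM, while Sox1 and Pax6 had 2 and 1 UMIs in the rule cells. Otx2, of early epiblast and anterior midline, was 1.70-fold higher (1.19 to 2.37). Tbx6, of paraxial mesoderm, was at 3.59 CPM in the rule cells and 10.5 CPM in the other cells, and Acta2, of smooth muscle, at 4.42 and 13.9 CPM in the same order. The caudal epiblast genes were still present: Nkx1-2 stood at 140.2 CPM in the rule cells and 187 CPM in the other cells, Cdx2 at 121 and 122 CPM, and Fgf8 at 98.8 and 95.4 CPM. Pou5f1, of pluripotent and early epiblast cells, was at 316 CPM in the rule cells and 442 CPM in the other cells. The rule cells thus kept caudal epiblast transcripts beside their node transcripts, and whether single cells or subgroups account for this is described further on.

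Across the transcriptome, 12439 genes outside the rule could be measured, meaning that at equal levels at least 5 UMIs would be seen in the rule cells. Of these, 915 (7.36%) were at least 1.5-fold higher in the rule cells and 707 (5.68%) at least 1.5-fold lower. Among the 2209 genes with under 20 such UMIs, 22.1% passed the fold upwards and 18% downwards. A fold in a thinly counted gene therefore says less. Against only the 1806 other cells with T, 7.45% of genes passed the fold upwards and 5.46% downwards.

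Node signal genes, which include ligands, antagonists and co-receptors, did not share a direction. Of 13 measured members, 6 passed the 1.5-fold line upwards and 2 downwards. Their median log2 ratio was 0.08, and that of all measured genes 0.01. Dkk1, a WNT antagonist of the anterior midline, was at 24.7 CPM in the rule cells and 3.54 CPM in the other cells, 6.99-fold higher (5.65 to 8.63). It was detected in 53 rule cells (17.2%) and in 2.99% of the other cells, and 1 rule cell held 19.6% of its UMIs. Cfc1, the Nodal co-receptor Cryptic, was at 40.9 CPM in the rule cells and 6.50 CPM in the other cells, 6.29-fold higher (5.36 to 7.38), with UMIs in 38.2% and 9.53% of cells. Lefty1, a Nodal antagonist of the midline, was 1.98-fold higher and Bmp7 1.90-fold higher. The 2 lower members were Lefty2, 2.87-fold lower with 8 UMIs in the rule cells, and Gdf3, 2.25-fold lower with 9 UMIs. Tdgf1, the other Nodal co-receptor (Cripto), was at 24.6 CPM in the rule cells and 35.8 CPM in the other cells and did not pass the fold.

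Node and notochord genes moved most as a group. Of 29 listed genes outside the rule, 21 were measured. Of these, 17 passed the fold upwards and 0 downwards, and their median log2 ratio was 1.64. Lmx1a, a homeobox factor of midline cells including floor plate, was at 13.7 CPM in the rule cells and 1.13 CPM in the other cells, 12.1-fold higher (8.68 to 17.1). It was detected in 51 rule cells and in none of the 271 cells without T. Vtn, which encodes vitronectin, was 9.13-fold higher (6.61 to 12.7), and Col2a1, the collagen of the notochordal sheath and cartilage, 9.10-fold (5.59 to 14.9) with 41 UMIs in 20 rule cells. Sox9, a factor of notochord and cartilage, was at 39.2 CPM in the rule cells and 8.21 CPM in the other cells, 4.78-fold higher (4.10 to 5.57). Cthrc1, a secreted collagen-like protein, was at 101.5 CPM in the rule cells and 18.4 CPM in the other cells, 5.51-fold higher (4.99 to 6.07). Mnx1, a homeobox factor of notochord and motor neurons, was 4.09-fold higher (3.32 to 5.02), Slit2 2.94-fold, and Pkd1l1, the ciliary flow-sensing partner of polycystin 2, 7.71-fold. Gsc and Lhx1, homeobox factors of the early organiser, were 3.11-fold (2.15 to 4.44) and 3.30-fold (2.77 to 3.93) higher. Among the members that did not pass, Pkd2, Ntn1 and Sulf1 had ratios of 1.38, 1.24 and 1.23.

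Many motile cilium genes were higher, mostly at low levels. Of 88 listed genes in the table, 47 could be measured. Of these, 28 passed the fold upwards and 0 downwards, and the median log2 ratio was 0.73. The summed level of the list, which its abundant members set, was 2528 CPM in the rule cells and 2513 CPM in the other cells. Of the 30 measured members with at least 20 expected UMIs, 14 passed the fold, against 4.16% of all genes counted as deeply. The uncharacterised gene 1110017D15Rik had 29 UMIs in the rule cells and 15 in the other cells, 13.7-fold higher on the CPM scale (7.13 to 27.6). Cfap45, a protein inside the doublet microtubules of motile cilia, had 32 and 33 UMIs in these sets and was 6.89-fold higher (4.10 to 11.6). Enkur was 5.01-fold higher (2.84 to 8.71) and Spef1, a microtubule protein of the central pair, 4.99-fold (2.90 to 8.47). Ccno, which acts in centriole production of multiciliated cells, lies outside the list and was at 25.3 CPM in the rule cells and 5.15 CPM in the other cells, 4.90-fold higher (4.04 to 5.94). Of the genes of cilium assembly in general, which primary cilia need too, 3 of 39 were higher and 0 lower. The count of higher ones was near the 7.36% of all measured genes. A ratio above 1 was seen in 32 of the 39, and the median log2 ratio was 0.29. The higher ones included Rfx3, a transcription factor of ciliary genes, at 1.51-fold (1.17 to 1.93).

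**Figure D2:**
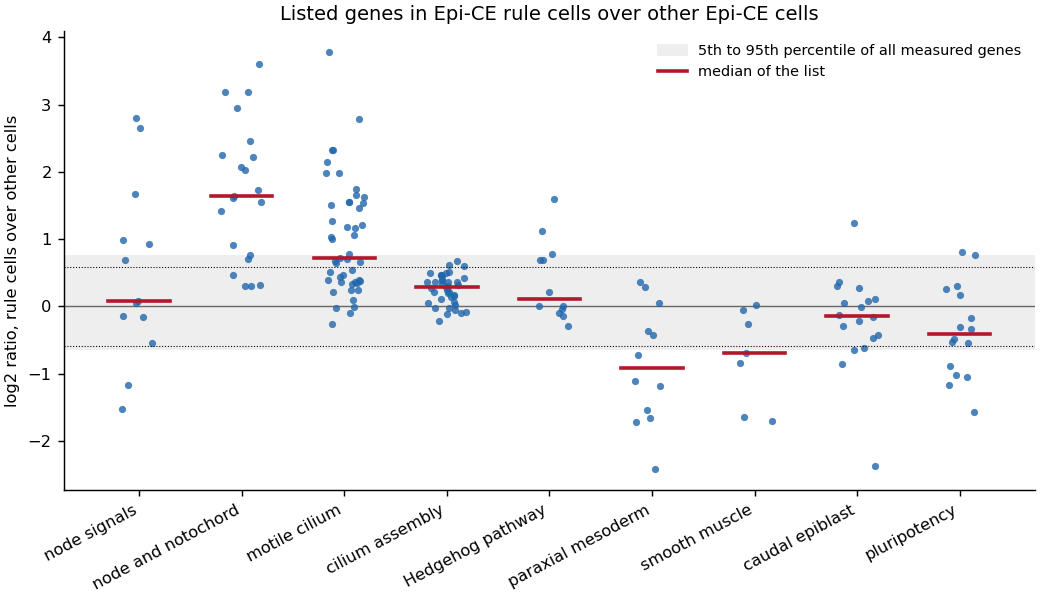
Log2 ratio of CPM in rule cells over other Epi-CE cells for each measured gene of 9 lists (points), with list medians in red, the 5th to 95th percentile of all measured genes in grey and the 1.5-fold lines dotted. Node and notochord genes sit highest with a median of 1.64, motile cilium genes follow at 0.73, and paraxial mesoderm genes sit lowest at -0.91.

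The promoters of the motile cilium genes were searched in RefSeq windows of build mm10 that run from 250 bases before to 50 after each gene start. The X-box, the site of RFX factors, was written as GTNNCC, 3 further bases and GNAAC, and searched on both strands. It occurs in 17 of 88 windows of 77 motile cilium genes (19.3%) and in 2.17% of all 32851 windows. This was the spelling with the most matches of 4 that were tried. With GTTNCC as its first part, 11.4% of the motile cilium windows and 0.804% of all windows hold it. The half-site GTTGCC, which overlaps many X-boxes, occurs in 45.5% of the motile cilium windows and in 12.5% of all windows, and the forkhead letters TGTTTAC in 5.68% and 3.65%. A match is no evidence of binding, and genes with a half-site were not higher than those without: 12 of 21 measured motile cilium genes with it passed the fold (median log2 ratio 0.66), and 12 of 20 without it (0.97). The 250 bases before a RefSeq transcript start are shown for 3 genes that were higher in the rule cells, each on its gene's strand, with the X-box in capitals. In Cfap45 the match is on the opposite strand. Cfap45 lies at chr1:172520880-172521129 on the plus strand, Pifo at chr3:106001498-106001747 on the minus strand with 2 X-boxes on the gene's strand, and Ccdc151, a dynein-docking gene, at chr9:22002635-22002884 on the minus strand. GENCODE M21 puts the outermost start of Cfap45 at 172520801 and that of Pifo at 106014646, so these 2 windows lie inside the annotated genes, before another start.
Cfap45: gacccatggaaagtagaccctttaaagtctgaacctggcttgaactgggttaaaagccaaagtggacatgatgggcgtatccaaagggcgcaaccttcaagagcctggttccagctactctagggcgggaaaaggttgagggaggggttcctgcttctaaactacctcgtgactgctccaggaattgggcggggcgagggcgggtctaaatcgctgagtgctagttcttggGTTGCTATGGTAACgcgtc
Pifo: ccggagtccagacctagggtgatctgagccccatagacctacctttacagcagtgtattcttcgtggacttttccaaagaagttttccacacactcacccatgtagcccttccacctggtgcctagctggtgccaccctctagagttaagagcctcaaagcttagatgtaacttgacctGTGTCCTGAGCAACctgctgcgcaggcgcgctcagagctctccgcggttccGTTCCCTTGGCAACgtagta
Ccdc151: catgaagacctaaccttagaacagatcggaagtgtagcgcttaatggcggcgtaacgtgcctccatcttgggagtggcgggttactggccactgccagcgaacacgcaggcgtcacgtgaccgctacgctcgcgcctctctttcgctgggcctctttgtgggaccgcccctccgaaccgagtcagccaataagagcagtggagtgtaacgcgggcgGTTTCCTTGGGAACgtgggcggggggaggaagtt

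Hedgehog pathway genes included higher targets. Of 12 measured members 5 were higher and 0 lower (7.36% and 5.68% of all measured genes). Against the other cells with T, 3 were higher (7.45% of all). Ptch1, the receptor gene that the pathway itself induces, was at 68.6 CPM in the rule cells and 22.8 CPM in the other cells, 3.01-fold higher (2.71 to 3.35). Gli1, another induced target, was 1.72-fold higher (1.27 to 2.31). Smo, the signal transducer, was at 47.8 CPM in both sets. Ptch1 was at 72.8 CPM in rule cells with Shh and no Foxj1, 51.1 CPM in those with Foxj1 and no Shh, and 78.2 CPM in those with neither. It was detected in 71.2%, 47.2% and 66.0% of these cells and in 32.7% of the other cells, and 5 of the 6 rule cells with at least 10 Ptch1 UMIs had neither gene.

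Samd3 had the highest ratio after Pomc among all measured genes. It was at 40.5 CPM in the rule cells and 2.51 CPM in the other cells, 16.1-fold higher (13.1 to 20.0), and was detected in 97 rule cells (31.4%) against 3.71% of the other cells and 3.32% of cells without T. Ppp1r1a, a phosphatase inhibitor, was 5.03-fold higher (4.59 to 5.51), and Tmod2, an actin-capping protein, 4.01-fold (3.60 to 4.48). Flrt3, Creb3l2, Arl4a, Klhl6 and Pradc1 were 4.15-fold, 3.65-fold, 3.49-fold, 3.49-fold and 3.31-fold higher. Cdkn1c, the cell cycle inhibitor p57, was at 501 CPM in the rule cells and 211 CPM in the other cells, 2.38-fold higher (2.29 to 2.47). S-phase genes had a median log2 ratio of -0.18, with 1 of 20 past the fold downwards, near the 5.68% of all measured genes. Yet 0 of the 20 had a ratio above 1. G2/M genes had a median of 0.20, with 0 of 22 past the fold in either direction and 17 with a ratio above 1.

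Pomc, the precursor of ACTH and other peptide hormones, had the highest ratio of all measured genes but rested on few cells. It was at 105.1 CPM in the rule cells and 5.81 CPM in the other cells, 18.1-fold higher (15.8 to 20.7). Yet 4 rule cells with 380, 157, 81 and 66 UMIs held 89.9% of its rule-cell UMIs. Without those 4 cells the ratio was 1.84 (1.42 to 2.38). All 4 had Shh, Chrd and T, and all 4 had 0 UMIs of Foxj1, Noto, Pou5f1 and Nkx1-2. None of their barcodes occurs in another library.

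Lower genes included several of the epiblast and the pluripotent state. Sfn, the epithelial 14-3-3 protein stratifin, was at 3.73 CPM in the rule cells and 44.1 CPM in the other cells, 11.8-fold lower (8.11 to 18.0). Cited1 was 3.83-fold lower, Fgfbp1, a carrier of secreted FGFs, 3.21-fold, and Utf1, a chromatin factor of pluripotent cells, 2.97-fold. For the list counts that follow, 5.68% of all measured genes were lower and 7.36% higher. Of 16 measured pluripotency genes, 5 were at least 1.5-fold lower and 2 higher, the median log2 ratio being -0.41. Nanog was at 7.60 CPM in the rule cells and 15.4 CPM in the other cells, whereas Fgf5 was higher at 33.8 CPM in the rule cells and 19.3 CPM in the other cells. Of 12 paraxial mesoderm genes 7 were lower and 0 higher (median log2 ratio -0.91). Aldh1a2, the retinoic acid synthesis enzyme of somitic mesoderm, was 5.34-fold lower with 10 UMIs in the rule cells. Fgf3, chosen after its values were seen, had 1 UMI in the rule cells and 163 in the other cells. Of 7 smooth muscle genes 4 were lower. Of 18 caudal epiblast genes 4 were lower and 1 was higher. The lower ones included Fgf17 (5.18-fold, 5 UMIs in the rule cells) and Gbx2 (1.81-fold), and the higher one was Cyp26a1, which degrades retinoic acid, at 2.36-fold (1.95 to 2.85) with 22.8% of its UMIs in 1 rule cell.

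Signalling targets and the remaining lists had smaller median differences than the node and notochord list. Beside the counts that follow, 7.36% of all measured genes were higher and 5.68% lower. Of 11 Notch pathway genes 4 were higher and 2 lower, among them the ligand gene Jag1, 3.19-fold higher (1.84 to 5.37) on 22 UMIs, and the receptor gene Notch2, 1.93-fold higher (1.62 to 2.28). Of 8 BMP targets 3 were higher and 0 lower, including Id3, an inhibitor of differentiation factors, at 259 CPM in the rule cells and 163 CPM in the other cells. Of 13 WNT targets 3 were higher and 0 lower, and of 12 FGF feedback genes 0 were higher and 1 lower. Of 14 primitive streak genes 3 were higher and 3 lower, and the same counts held for 16 epithelial genes. Of 13 mesenchymal genes 2 were lower, among them Fn1, fibronectin, at 23.3 CPM in the rule cells and 42.8 CPM in the other cells. Of 14 Hox genes 3 were lower and 0 higher. Few endoderm (8), visceral endoderm (5), neural (8) and lateral mesoderm or blood genes (5) were measured, with 2, 2, 2 and 1 higher and 1, 0, 1 and 2 lower. Of 9 genes of cyclin-dependent kinase inhibitors and D-type cyclins 1 was higher and 1 lower, and of 17 glycolysis genes 1 was lower. Of 12 immediate early genes 2 were lower and 0 higher, but 10 had a ratio above 1 (median log2 ratio 0.25).

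The rule's threshold cuts a graded series, and the genes outside the rule were graded too. Cells were binned by their node-gene UMIs into 0 (1257 cells), 1 (423), 2 (240), 3 (145), 4 to 5 (130), 6 to 8 (117) and 9 or more (74), the bins of 4 or more including the 12 cells without T. From the lowest to the highest bin, Nog was at 12.3, 15.9, 18.5, 29.8, 31.3, 49.0 and 60.7 CPM. Sox9 was at 5.66 CPM in the lowest bin and, from 2 UMIs up, at 16.5, 17.7, 25.9, 40.6 and 54.7 CPM. Cfc1 was at 2.91 CPM in cells with no node-gene UMI and 65.5 CPM in the highest bin, and Ptch1 was at 25.7 CPM with 1 UMI and 98.2 CPM in the highest bin. T itself was at 316 CPM in the lowest bin and 837 CPM in the highest. Pou5f1 ran the other way, with 458 CPM in the lowest bin and 287 CPM in the highest. Cells with 3 node-gene UMIs, which the rule leaves out, had levels between those of the cells on either side for Nog, Sox9, Cfc1 and Ptch1. Pomc was not graded: it was highest at 205 CPM in the bin of 6 to 8 UMIs and at 7.51 CPM in the highest bin.

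**Figure D3:**
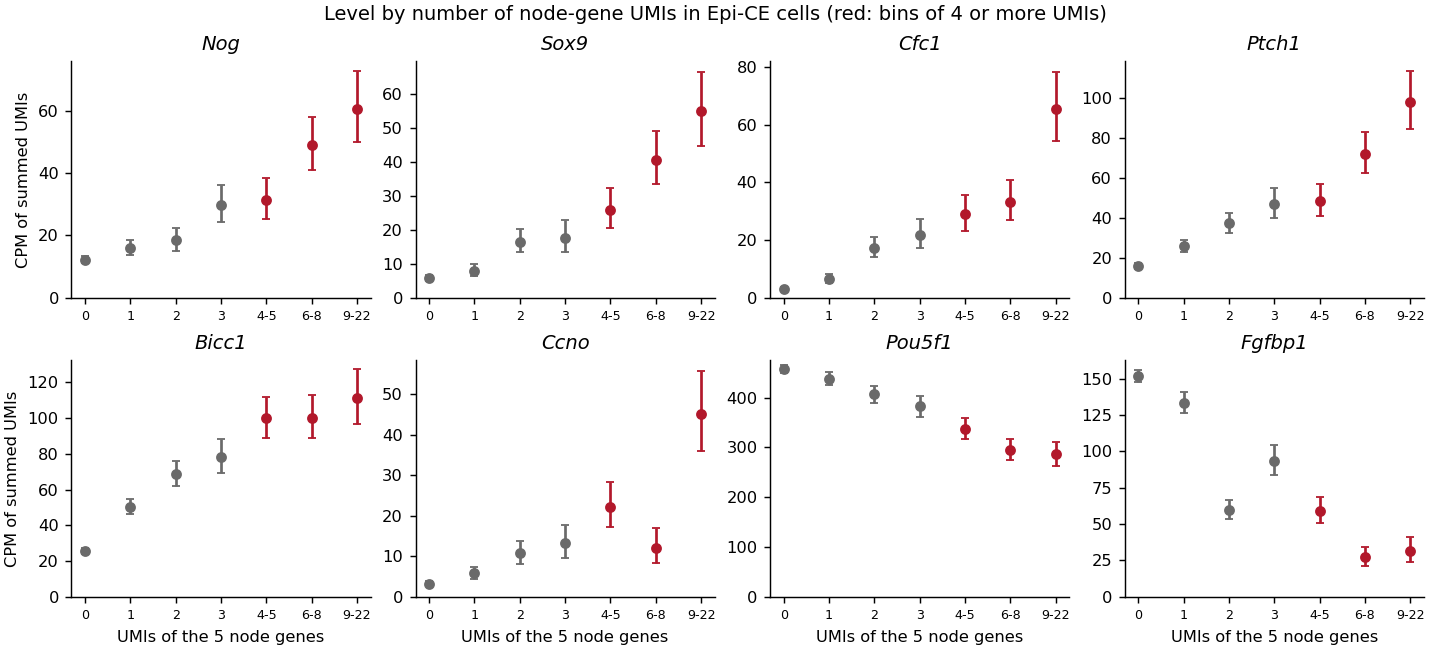
CPM of 8 genes outside the rule (points, with exact Poisson 95% intervals) in Epi-CE cells binned by node-gene UMIs, low to high, with bins of 4 or more UMIs in red. Nog, Sox9, Cfc1, Ptch1 and Bicc1 are highest in the top bin and lowest at 0 UMIs, Ccno reaches 45.1 CPM in the top bin, and Pou5f1 and Fgfbp1 run the other way.

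The rule cells were not uniform. Shh was detected without Foxj1 in 66 of them, Foxj1 without Shh in 89, both in 13 and neither in 141. Within the rule cells Foxj1 was detected in 16.5% of cells with Shh and 38.7% of cells without, but a minimum on a sum makes its parts exclude each other, so this contrast is partly built in. Nearest neighbours in expression, found with the 6 rule genes left out, were counted for each cell. On average 34.6% of the 15 nearest neighbours of a rule cell were rule cells, against 7.66% for other cells. For cells with Shh alone of this pair it was 58.2%, and 45.5% of their neighbours were cells of the same kind. For cells with Foxj1 alone it was 36.5%, with 18.7% of the same kind, and for cells with neither 20.8%, with 10.1% of the same kind. The Shh cells were thus the most closely grouped of the 3.

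Set beside the Foxj1 cells, the Shh cells had more of most notochord genes and less of the epiblast and ciliary genes. Of 9869 genes measured in this comparison, 1459 (14.8%) were at least 1.5-fold higher in the Shh cells and 1231 (12.5%) at least 1.5-fold lower. Of 21 measured node and notochord genes 14 were higher and 2 lower (median log2 ratio 1.09). Lmx1a was at 50.3 CPM in the Shh cells and 4.82 CPM in the Foxj1 cells, 10.4-fold higher (5.34 to 22.7). It was detected in 32 of the 66 Shh cells and 7 of the 89 Foxj1 cells. Col2a1 was 17.1-fold higher (5.39 to 87.2), Sox9 4.51-fold, Slit2 3.47-fold and Nog 4.21-fold. The 2 lower members were Lhx1, 5.73-fold lower (3.15 to 11.5), and Tppp3, a microtubule-bundling protein, 3.16-fold lower.

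Samd3 was detected in 57 of the 66 Shh cells and 13 of the 89 Foxj1 cells, and its level was 11.2-fold higher (7.47 to 17.4). Alcam, an adhesion molecule, was at 82.3 CPM in the Shh cells and 4.82 CPM in the Foxj1 cells, 17.1-fold higher (8.95 to 36.6). Tmem158 was 14.9-fold higher, with 24.1% of its UMIs in the Shh cells coming from 1 cell. Pomc was 70.7-fold higher, and 1.90-fold (0.90 to 4.05) without the 4 richest cells.

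Motile cilium genes ran the opposite way between these subsets. In the Shh cells 27 of the 38 that were measured passed the fold downwards and 1 upwards. Cfap45 had 1 UMI in the 66 Shh cells and 24 UMIs in the 89 Foxj1 cells, where 15 cells had it. Enkur was 4.63-fold lower in the Shh cells (1.06 to 42.0), Spef1 3.31-fold (0.94 to 17.8) and Pifo 2.09-fold (1.10 to 4.24). Ccno was at 8.01 CPM in the Shh cells and 57.3 CPM in the Foxj1 cells, 7.16-fold lower (3.86 to 14.7). Tctn1, of the transition zone that primary cilia share, was the 1 higher member, with 9 UMIs in each subset and a ratio of 1.51 (0.53 to 4.30).

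Epiblast genes were also far lower in the Shh cells. Pou5f1 was at 53.2 CPM in the Shh cells and 395 CPM in the Foxj1 cells, 7.42-fold lower (5.84 to 9.57). It was detected in 28 of 66 Shh cells and 84 of 89 Foxj1 cells, and in 95.8% of the Epi-CE cells outside the rule. Nkx1-2 was at 21.8 CPM in the Shh cells and 136 CPM in the Foxj1 cells, 6.24-fold lower (4.28 to 9.42). Cdx1 was 8.41-fold lower, Wnt8a 7.39-fold, Alox15 10.1-fold and Fst, the activin-binding follistatin, 6.19-fold. Over the lists, 11 of 15 pluripotency genes were lower and 1 higher, 9 of 14 caudal epiblast genes were lower and 3 higher, and 7 of 13 epithelial genes were lower and 1 higher. Cdh1, E-cadherin, was at 3.64 CPM in the Shh cells and 15.4 CPM in the Foxj1 cells, while Cdh2, N-cadherin, was at 96.9 and 45.8 CPM.

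The cells with both genes and with neither lay between or beside these. In the 13 cells with both, Lmx1a was at 31.8 CPM, Samd3 at 79.5 CPM, Pou5f1 at 99.3 CPM and Cfap45 at 11.9 CPM, so they had transcripts of either kind, from few cells. The 141 cells with neither had Pou5f1 at 387 CPM, Nkx1-2 at 194 CPM, Lmx1a at 3.39 CPM and Ccno at 13.6 CPM. Their Nkx1-2 level was close to the 187 CPM of the cells outside the rule, so the lower Nkx1-2 of the rule cells as a whole came from the cells with Shh or Foxj1. In the 74 cells with Foxa2 alone, Pou5f1 was at 443 CPM, Nog at 20.0 CPM and T at 636 CPM. Without the 79 Shh-holding cells, 736 of 12065 measured genes were at least 1.5-fold higher in the rule cells. They included 12 node and notochord genes, against 17 with those cells, and 24 motile cilium genes, against 28. Of 124 named genes, 37 then had a ratio outside the interval given for all rule cells.

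**Figure D4:**
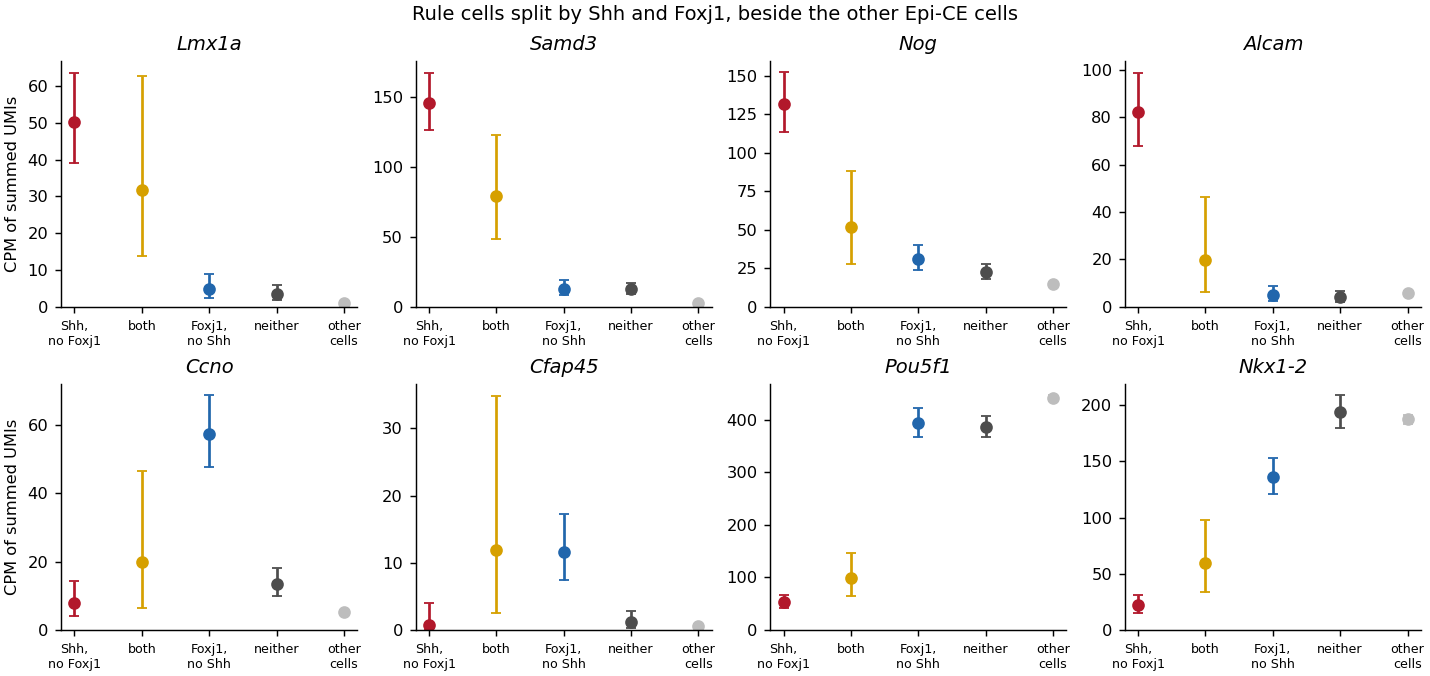
CPM of 8 genes (points, with exact Poisson 95% intervals) in rule cells with Shh and no Foxj1 (66 cells), both (13), Foxj1 and no Shh (89) and neither (141), and in the other Epi-CE cells (2077). Lmx1a, Samd3, Nog and Alcam are highest with Shh, Ccno is highest with Foxj1 alone, and Pou5f1 and Nkx1-2 are lowest with Shh alone.

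Some endoderm transcripts sat at the edge of the rule, and more lay further outside it. In all, 32 of the 2077 other cells had Sox17, with 112 UMIs, and 13 had Spink1, with 76 UMIs. Of the 12 cells that reached 4 node-gene UMIs without T, 3 had Sox17, with 33 UMIs together, and 2 had Spink1, with 41 UMIs. A single one of them held 118 UMIs of Trh, out of the 160 in all cells outside the rule. Trh was 2.25-fold lower in the rule cells than in those, and against the other cells with T its log2 ratio was 0.63. Among the rule cells Sox17 was confined to 4 cells, none of them with Shh alone or Foxj1 alone. In those 4 cells T was at 94.1 CPM, below the 759.8 CPM of all rule cells, and Sox17 at 387 CPM. They also held Spink1 at 627 CPM.

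The same rule was applied to the TRUE cells of the other libraries. It picked 1012 of 2109 Epi-CE-T cells (47.98%), 79 of 1111 Epi-NMP cells (7.11%) and 4 of 3116 ES-NMP cells (0.128%, 0.0350 to 0.328). Median UMIs per cell were 18738 in the Epi-CE-T rule cells and 17271 in the Epi-NMP rule cells. The shares differ between libraries that also differ in line, sort and time in culture, and what sets the shares cannot be told apart.

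Within each library the node and notochord list was higher in the cells that passed the rule. In Epi-CE-T, 22 of 28 measured members passed the fold upwards and 2 downwards (9.42% and 9.76% of all measured genes), and the median log2 ratio was 1.14. In Epi-NMP, 15 of 16 were higher and 0 lower (10.5% and 10.1% of all), with a median of 2.00. Lmx1a was 12.1-fold higher in Epi-CE, 2.99-fold in Epi-CE-T and 9.20-fold in Epi-NMP. Its level was 1.13, 35.4 and 2.49 CPM in the other cells of these libraries, and 13.7, 106 and 22.9 CPM in the rule cells. The smaller fold in Epi-CE-T thus went with higher levels in both sets. Mnx1 was 4.09-fold, 3.09-fold and 3.94-fold higher in the same order. Of the motile cilium list, 28 of 47 were higher in Epi-CE (median log2 ratio 0.73), 16 of 58 in Epi-CE-T with 4 lower there (0.24), and 1 of 15 in Epi-NMP with 1 lower (-0.094). In Epi-NMP 73 of the 88 listed motile cilium genes could not be measured, so the counts of the libraries cover unlike sets of genes. These differences between libraries were not tested.

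**Figure D5:**
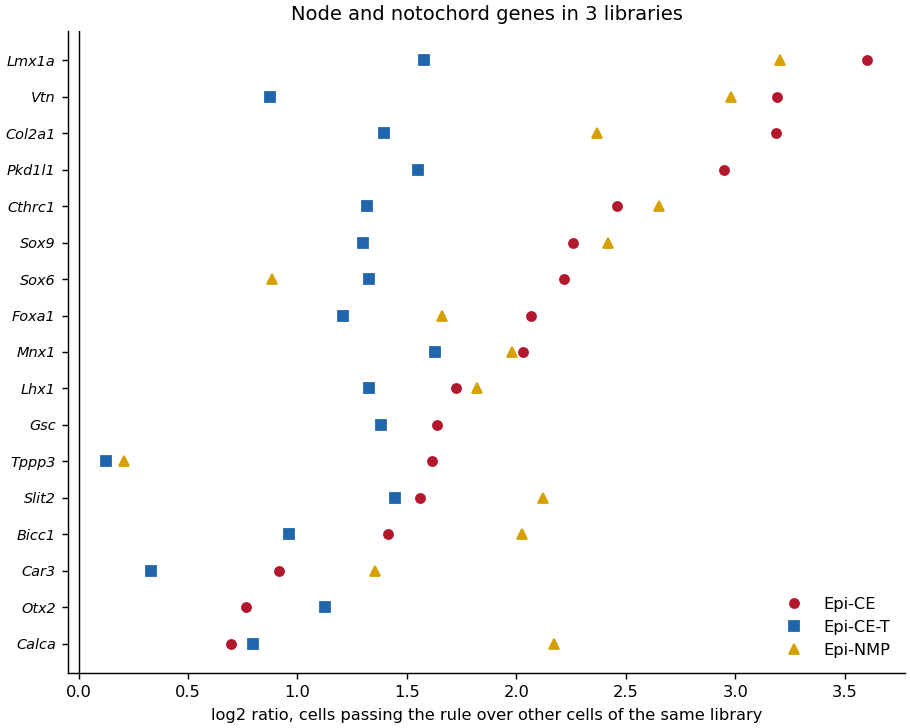
Log2 ratio of CPM in cells passing the rule over the other cells of the same library, for the 17 node and notochord genes at least 1.5-fold higher in Epi-CE, in Epi-CE (circles), Epi-CE-T (squares) and Epi-NMP (triangles, where measured). All plotted values are above 0, and the Epi-CE-T values of Lmx1a, Vtn and Col2a1 lie below the Epi-CE ones. The other cells, which are the denominator, had these genes at 35.4, 70.4 and 37.3 CPM in Epi-CE-T. In Epi-CE they had them at 1.13, 1.36 and 0.622 CPM.

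Set directly against the Epi-CE-T rule cells, the Epi-CE rule cells had less of most notochord genes and more of the caudal and ciliary genes. Of 12562 measured genes, 14.1% were at least 1.5-fold higher in the Epi-CE rule cells and 18.5% lower. Of 26 node and notochord genes 2 were higher and 19 lower (median log2 ratio -1.42). Of 15 caudal epiblast genes 12 were higher and 1 lower (4.74), and of 53 motile cilium genes 27 were higher and 3 lower (0.59). Nkx1-2 was at 140.2 CPM in the Epi-CE rule cells and 1.53 CPM in the Epi-CE-T rule cells, and Cdx2 at 121 and 1.38 CPM. Shh was at 33.1 CPM in the Epi-CE rule cells and 154.7 CPM in the Epi-CE-T rule cells, and Foxj1 at 41.6 and 12.6 CPM. Pomc was at 105.1 CPM in the Epi-CE rule cells and 1997 CPM in the Epi-CE-T rule cells.

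The 66 Epi-CE cells with Shh and no Foxj1 stood nearer to the Epi-CE-T rule cells than the Foxj1 cells did in several genes. Of the 1012 Epi-CE-T rule cells, 731 themselves had Shh and no Foxj1, so part of this likeness is built in. The genes that follow are among those furthest apart between the Epi-CE subsets. Lmx1a was at 50.3 CPM in the Shh cells, 4.82 CPM in the Foxj1 cells and 106 CPM in the Epi-CE-T rule cells. Alcam was at 82.3, 4.82 and 148 CPM in that order, Samd3 at 146, 13.0 and 257 CPM, and Pou5f1 at 53.2, 395 and 15.3 CPM. Lmo2 went the other way, at 120 CPM in the Shh cells and 17.8 CPM in the Foxj1 cells. It was at 16.9 CPM in the Epi-CE-T cells with Shh and no Foxj1. In Epi-CE-T the same split gave 731 cells with Shh and no Foxj1 and 45 with Foxj1 and no Shh. There 10 of 21 node and notochord genes were higher in the Shh cells and 3 lower (10.9% and 5.65% of all measured genes), and 5 of 20 motile cilium genes were lower and 0 higher.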

How the data were processed

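The authors deposited 1 table of raw UMI counts per gene and barcode, with 27998 genes and 10579 barcodes, and 1 table that gives each barcode's library and a TRUE or FALSE mark. Cell Ranger 1.3.1, Seurat 2.0 and build mm10 are named, per the submitters' processing notes. What the mark stands for is not given in the sources used here. Only TRUE barcodes were used, and doublets were kept: Scrublet called 9 of the Epi-CE cells (0.377%), too few to rely on.

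UMIs were summed over each set of cells and scaled to CPM, and ratios carry exact conditional-binomial 95% intervals. Shares carry Clopper-Pearson intervals, and plotted levels exact Poisson intervals. All of them cover counting error only and treat UMIs as independent. A gene was measured when at least 5 UMIs were expected in the smaller set, and a difference was counted from 1.5-fold. A count of 0 was set to a floor of 3 counts where a bound was needed. With 1 library per culture no test across samples was possible. The script was tested on simulated counts. Python 3.11.15, numpy 2.4.6, scipy 1.17.1, pandas 2.3.3, scanpy 1.11.5 and edgeR 4.0.16 (R 4.3.3, for TMM scaling only) were used.

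The genes named are the 15 highest and 12 lowest of at least 20 CPM by the interval bound nearest to 1, the 3 most changed members of each of 26 lists (5 for motile cilia and node signals), fixed cell type markers and the rule genes. Other genes, those of the Shh and Foxj1 subsets, the subsets themselves and the promoter motifs were chosen after values were seen. The members and lists were chosen with earlier results of these data known. Of the other settings tried, 15 were fixed first and 4 were added after seeing the data. Some genes of the lists are counted but not reported by name here.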

Additional observations from a re-analysis of the deposited data

Results flagged for a closer look

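For 3 named genes the rule cells were at least 1.5-fold higher than the other cells in Epi-CE and at least 1.5-fold lower in Epi-CE-T. The intervals of these genes lay clear of 1 in each library. The difference between libraries was not tested. Fgf5, of primed epiblast, was 1.75-fold higher in the Epi-CE rule cells than in the other Epi-CE cells, and 2.21-fold lower in the Epi-CE-T rule cells than in the other Epi-CE-T cells. Rsph1, of motile cilia, was 2.04-fold higher in Epi-CE and 2.15-fold lower in Epi-CE-T. Sox17 was 2.35-fold higher in Epi-CE, on 4 rule cells, and 2.59-fold lower in Epi-CE-T, and without the richest Epi-CE rule cell its ratio was 1.08.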

How the results depend on the processing

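No paired analysis was possible because each culture has only 1 library. Over 17 alternatives, the genes at least 1.5-fold higher numbered 736 to 2587 and those lower 638 to 1150, with 16 of 17 counts within 1.5 times the reported one in either direction. The exception was no minimum on UMIs, with 2587 higher, 1150 lower and 50 motile cilium genes higher. Thinning every cell to 8000 UMIs left 18 motile cilium genes higher, with fewer genes measured. Asking for at least 6 node-gene UMIs gave 187 rule cells. Applying the rule to thinned counts gave 80 rule cells, 18 motile cilium genes and 9 node and notochord genes higher. Without the Shh-containing rule cells, an alternative chosen after seeing the data, the log2 ratio turned to -0.060 for Irx3, -0.61 for Msx1 and -0.24 for Rnf43. With the rule on thinned counts it turned to 0.10 for Cdkn2b, 0.21 for Hoxd1, -0.83 for Rnf43 and -0.45 for Sox17, and with all cells thinned to -0.34 for Rnf43. Against the other cells with T only, it was 0.018 for Cdkn2b and 0.63 for Trh. Trh also turned to 4.36 with no minimum on T and 1.99 against other cells without node-gene UMIs. The causes were not tested. Leaving out, for each of 123 genes, the rule cell richest in it reversed 0 and put 8 outside their reported interval. That count was 62 of 120 with the rule on thinned counts, 43 of 124 against other cells without node-gene UMIs and 37 of 124 without the Shh-containing cells. Genes with few UMIs in the rule cells are limited by depth.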
